A study of Mus musculus with 24 samples.

Results

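The 39 genes described here are the mouse genes whose symbol begins with Nop, Utp, Rrp, Nol or Noc followed by a number, among 55450 genes in the table. They were found by their symbols. Most were named after yeast proteins of the nucleolus, the compartment of the nucleus where ribosomes are built. There, RNA polymerase I transcribes a long precursor rRNA, small nucleolar ribonucleoproteins (snoRNPs) modify it and guide its folding, and a large assembly called the small subunit processome cleaves it and folds the part that becomes the small subunit. A separate series of factors assembles the large subunit from the remaining part. By their known roles, 21 of the genes belong to the small subunit processome or to later small subunit maturation, 12 to large subunit assembly and 3 to the snoRNP core, which for Nop56 and Nop58 is the box C/D particle and for Nop10 the box H/ACA particle. The other 3, Nol3, Nol4 and Nol4l, carry a nucleolar name but act elsewhere or have no settled role, and Nol3 is best known as an inhibitor of cell death.

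The study compared mice lacking Thumpd1, an adaptor needed for acetylation of cytidine in tRNA, with wild-type littermates. Thumpd1 KO mice came from C57BL/6N eggs injected with Cas9 and guide RNAs that cut in exons 1 and 4 of Thumpd1, so the deletion is germ line and present in every cell, and WT mice carried the intact gene with no other allele or treatment named. The animals were 6 to 12 weeks old, and the labels name no founder line for a library. Total RNA of cerebellum, liver and testes was sequenced after depletion of rRNA, with 4 libraries of each tissue and genotype and 24 in all. Per library, the table held between 16353797 and 37889615 expected counts.

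Thumpd1 itself followed the labels. It stood at 21.8 to 24.02 CPM (counts scaled to the library total) in the WT cerebellum libraries against 0 to 0.113 in KO, at 9.19 to 10.1 against 0 to 0.106 in liver, and at 24.3 to 26.3 against 0.768 to 1.14 in testes, where 23 to 41 counts remained per KO library. Each tissue held its own marker genes. The summed CPM of 10 granule cell genes was 6208 or more in cerebellum, 3.07 or less in liver and 21.6 or less in testes. That of 10 hepatocyte genes was 56210 or more in liver, 3.48 or less in testes and up to 964 in cerebellum. That of 19 elongating spermatid genes was 14450 or more in testes, 10.9 or less in liver and up to 211 in cerebellum. Libraries with consecutive numbers (1 and 2, 3 and 4, 5 and 6, 7 and 8) resembled each other by 1 measure. In 5 of 6 groups their deviations from the group mean correlated more than those of any other pair, the exception being WT testes. By chi-square per gene, liver WT 3 and 4 (369.7) and testes WT 1 and 2 (12.56) were the least alike pairs of their groups. By the same measure, liver KO 7 and 8 (122.4) were less alike than 6 and 7 (78.21). In cerebellum, the summed CPM of 10 choroid plexus genes was 104 to 1799 among WT and 122 to 658.5 among KO libraries. No source says what consecutive libraries share, so the member calls between genotypes below were also fitted with such couples treated as correlated, an alternative chosen after the data had been seen. No library was a copy of another, since the lowest chi-square per gene between 2 libraries of a group was 2.09 where sampling alone gives about 1.

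The first question is how much of the ribosome assembly machinery each wild-type tissue carried. Counts of the 12 WT libraries were scaled by TMM and divided by transcript length. TMM (trimmed mean of M values) is a factor that assumes most genes to be equal between libraries. With it, Rrp1, a large subunit factor, had the highest level of the 39 genes in every tissue. Its mean was 142 scaled CPM per kb in testes against 47.1 in cerebellum and 36.3 in liver. Testes also had the highest median over the 39 genes, at 6.42 scaled CPM per kb against 5.53 for liver and 4.29 for cerebellum. By total counts without TMM factors, testes was again highest at 7.52 CPM per kb, but cerebellum (6.00) was above liver (3.37). Expression in testes was concentrated in few genes, where the 5 with the most reads took 61.2% of all reads of the 39 genes, against 35.2% in cerebellum and 38.9% in liver. The 5 in testes were Nol4l, Rrp1, Nol8, Nop9 and Rrp7a. The lowest level above 0 was that of Nol3 in testes, at 0.0867 scaled CPM per kb, and 48.2% of its transcript is shared at full identity with the overlapping gene 4931428F04Rik.

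**Figure D1:**
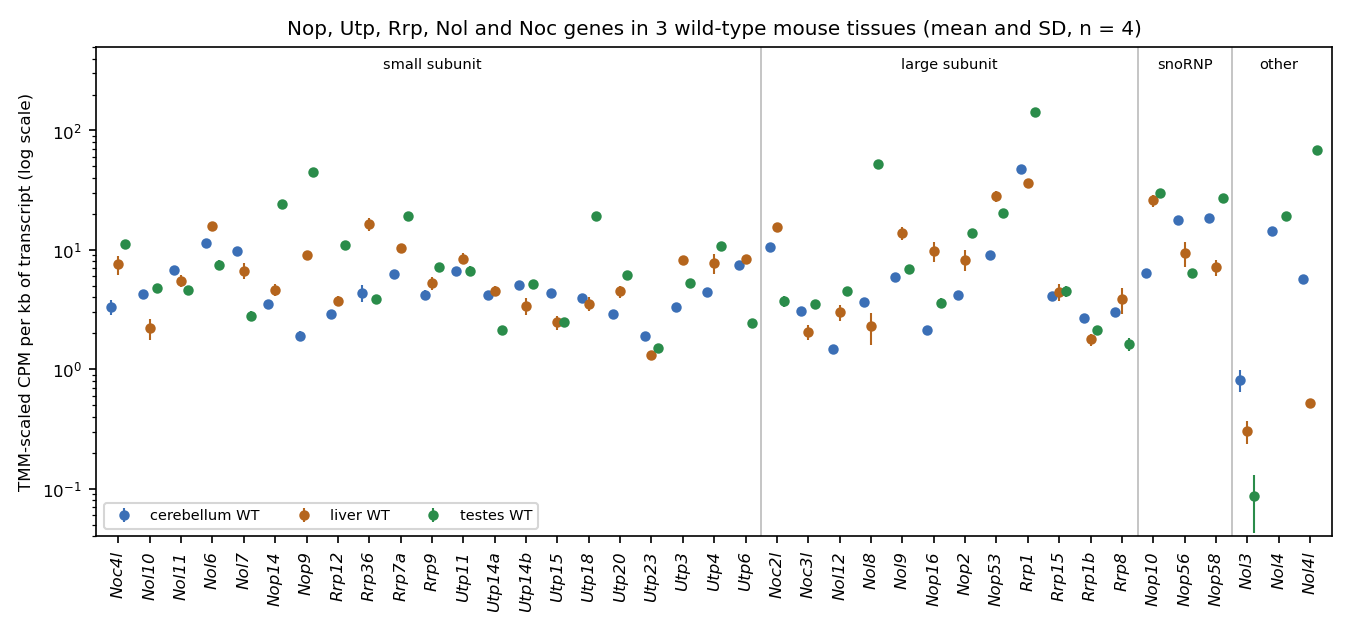
TMM-scaled CPM per kb of transcript (log scale) of the 39 genes in the WT libraries of cerebellum (blue), liver (brown) and testes (green), as mean with SD over 4 libraries, grouped by role. Testes points of Nop9, Nop14, Nol8, Rrp1 and Nol4l stand above both other tissues, and Nol4 has no liver point because all 4 libraries were at 0.

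Most of the genes differed between WT tissues, as did most genes of the table. Between cerebellum and liver, 35 of 39 passed an adjusted p of 0.05, 15 higher and 20 lower in cerebellum, beside 87.5% of all 21697 genes tested (43.3% higher, 44.2% lower). Between testes and liver, 36 passed, 21 higher and 15 lower in testes, beside 90.6% of all genes (55.7% higher, 34.9% lower). Between testes and cerebellum, 34 passed, 22 higher and 12 lower in testes, beside 90.3% (50.7% higher, 39.6% lower). The median log2 difference of the 39 genes was -0.32, 0.26 and 0.42 in these 3 contrasts and that of all genes -0.02, 0.83 and 0.37. The contrasts share libraries and are not independent of each other.

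The direction against liver depended on the scaling. TMM factors were 0.592 to 0.624 for the liver libraries, 1.38 to 1.41 for cerebellum and 1.16 to 1.20 for testes. With total counts alone, the median of all genes between cerebellum and liver moved from -0.02 to 1.18, 16 of the 39 genes changed sign, and the called genes split into 29 higher and 5 lower in cerebellum. Between testes and liver 5 genes changed sign and the split became 29 and 6, with a median of all genes of 1.78. Between testes and cerebellum 5 changed sign, none of them past the threshold under both scalings, and the split became 20 and 15. A highest tissue is therefore named below only for the 27 genes whose highest tissue was the same with and without the factors, which were 17 in testes, 7 in cerebellum and 3 in liver.

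Of the small subunit factors, 9 were highest in testes under both scalings. Nop9, a Pumilio-like RNA-binding protein needed for maturation of 18S rRNA, differed most. Its scaled CPM was 157.1, 165, 168.5 and 168.4 in the 4 testes libraries, 31.4 to 36.0 in liver and 6.19 to 7.51 in cerebellum, with no overlap between any 2 tissues. On the log2 scale it was 4.54 (SE 0.08) higher in testes than in cerebellum and 2.31 higher than in liver. Its exons overlap 1136 bases of Cideb on the opposite strand, and whether counting used strand is not given in the sources used here, so the level of Nop9 is uncertain to that extent. Nop14 and Utp18, a partner of Noc4l and a member of the UTP-B subcomplex, were 2.77 and 2.27 higher in testes than in cerebellum and 2.37 and 2.42 higher than in liver. The remaining 6 were Noc4l, Rrp12, Rrp7a, Rrp9, Utp20 and Utp4. In contrast, Utp6, also a UTP-B protein, was lowest in testes, at 8.91 to 9.83 scaled CPM against 28.1 to 29.6 in cerebellum and 30.8 to 34.8 in liver, which is 1.61 and 1.79 lower on the log2 scale. Nol7 likewise was 1.81 lower in testes than in cerebellum. Rrp36, which acts early in small subunit assembly, was the only small subunit factor highest in liver under both scalings, at 16.4 to 22.1 scaled CPM against 4.38 to 6.34 in cerebellum and 4.33 to 4.84 in testes, and cerebellum and testes did not differ past the threshold.

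Utp14a and Utp14b showed different tissue orders. Utp14b is an autosomal retrocopy of the X-linked Utp14a and is known for its part in spermatogenesis. Per kb, the mean scaled CPM of Utp14a in testes was 2.14, against 4.18 in cerebellum and 4.56 in liver. For Utp14b the testes mean was 5.15, against 5.11 in cerebellum and 3.39 in liver. Testes were lowest for Utp14a (0.96 below cerebellum on the log2 scale, adjusted p = 6.02e-08), whereas for Utp14b testes and cerebellum differed by 0.01 (adjusted p = 0.938) and liver was lowest. Utp14b shares 244 exon bases with Acsl3 on the same strand, and reads there may be counted with either gene.

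Among the large subunit factors, Nol8 had the largest difference, at 210 to 240 scaled CPM in the testes libraries, 15.5 to 17.0 in cerebellum and 6.33 to 12.6 in liver, or 3.84 and 4.55 higher on the log2 scale. Rrp1, Nop2 and Nol12 were also highest in testes under both scalings. Nop16 was highest in liver, at 13.8 to 21.3 scaled CPM against 3.54 to 4.13 in cerebellum and 5.51 to 6.86 in testes, with log2 differences of 2.20 and 1.45. Noc2l, a large subunit export factor that also acts on histone acetylation, was 1.499 lower in testes than in cerebellum and 2.06 lower than in liver, while its order between cerebellum and liver changed with the scaling. Nop53, which brings the exosome to the large subunit precursor, had 27.5 to 29.2 scaled CPM in cerebellum and 80.5 to 97.6 in liver, a log2 difference of 1.64. With TMM, Rrp15 was the gene for which no pair of tissues differed past the threshold. The remaining genes with 1 highest tissue under both scalings were Nol11, Utp15, Utp23 and Rrp1b in cerebellum, with 20.4 to 22.4, 17.0 to 18.9, 4.95 to 5.91 and 12.1 to 14.5 scaled CPM there, and Nol9 in liver, with 26.7 to 35.7.

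The snoRNP genes did not move together. Nop10 was higher in liver (23.99 to 31.7 scaled CPM) and testes (31.0 to 35.6) than in cerebellum (6.41 to 7.58). Of the box C/D pair, Nop58 was highest in testes (43.3 to 49.5) and lowest in liver (9.73 to 14.3), and Nop56 was highest in cerebellum (32.2 to 34.8) and 1.47 lower in testes (11.5 to 12.6) on the log2 scale. Its order between testes and liver (13.7 to 21.6) changed with the scaling, and with total counts liver was lowest, as for Nop58. The exons of Nop56 and Nop58 share bases with snoRNA genes on the same strand, and these reads may be counted with either gene.

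Nol4 and Nol4l, both without a settled nucleolar role, were at 0 or low in liver. Nol4 had 0 counts in all 4 WT and all 4 KO liver libraries, against 35.9 to 39.4 scaled CPM in cerebellum and 48.9 to 51.8 in testes, which is at least 201-fold and 268-fold higher than 3 counts in the shallowest scaled liver library. Nol4l was at 414 to 455 scaled CPM in testes, 34.9 to 37.4 in cerebellum and 3.11 to 3.72 in liver, with log2 steps of 3.604 and 3.44. Nol3 was highest in cerebellum, at 1.93 to 3.19 scaled CPM, and under 1 CPM in every liver and testes library before scaling. The tissues are mixtures of cells, and in bulk RNA a smaller number of cells of one type and less RNA per cell cannot be told apart.

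The main question of the study is what changes when Thumpd1 is lost. In cerebellum, 3 of 39 genes rose in KO and none fell (Rrp12, Rrp1 and Nol4l), in a background where 6.44% of 16225 genes passed the test, 3.93% higher and 2.51% lower. In liver, 1 of 37 tested genes fell (Nop9) and none rose, beside 5.91% of 12816 genes (2.79% higher, 3.12% lower). In testes, 4 of 38 rose (Nop56, Utp20, Utp6 and Rrp12) and 1 fell (Nol12), beside 20.5% of 19329 genes (9.74% higher, 10.7% lower). In these fits the members' shares were 7.69%, 2.7% and 13.2%, and their standing beside the background depended on the fit. In liver the members' share was below that of all genes except without WT replicate 2 (2.7% and 2.56%). In cerebellum the shares were 7.69% of members and 2.05% of all genes without a filter on low counts, 7.69% and 3.69% with the couples, under which Rrp12, Rrp1 and Nol4l were again called, 5.13% and 2.45% without WT replicate 1, and 10.3% and 14.3% without KO replicate 6. The testes shares are given below. Without the adjustment, 10 of 39, 8 of 37 and 16 of 38 genes had p under 0.05, beside 3929 of 16225, 2981 of 12816 and 7145 of 19329 genes tested. Log2 changes were small, with extremes of -0.24 and 0.43 in testes, -0.24 and 0.39 in cerebellum, and -0.41 and 0.21 in liver.

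**Figure D2:**
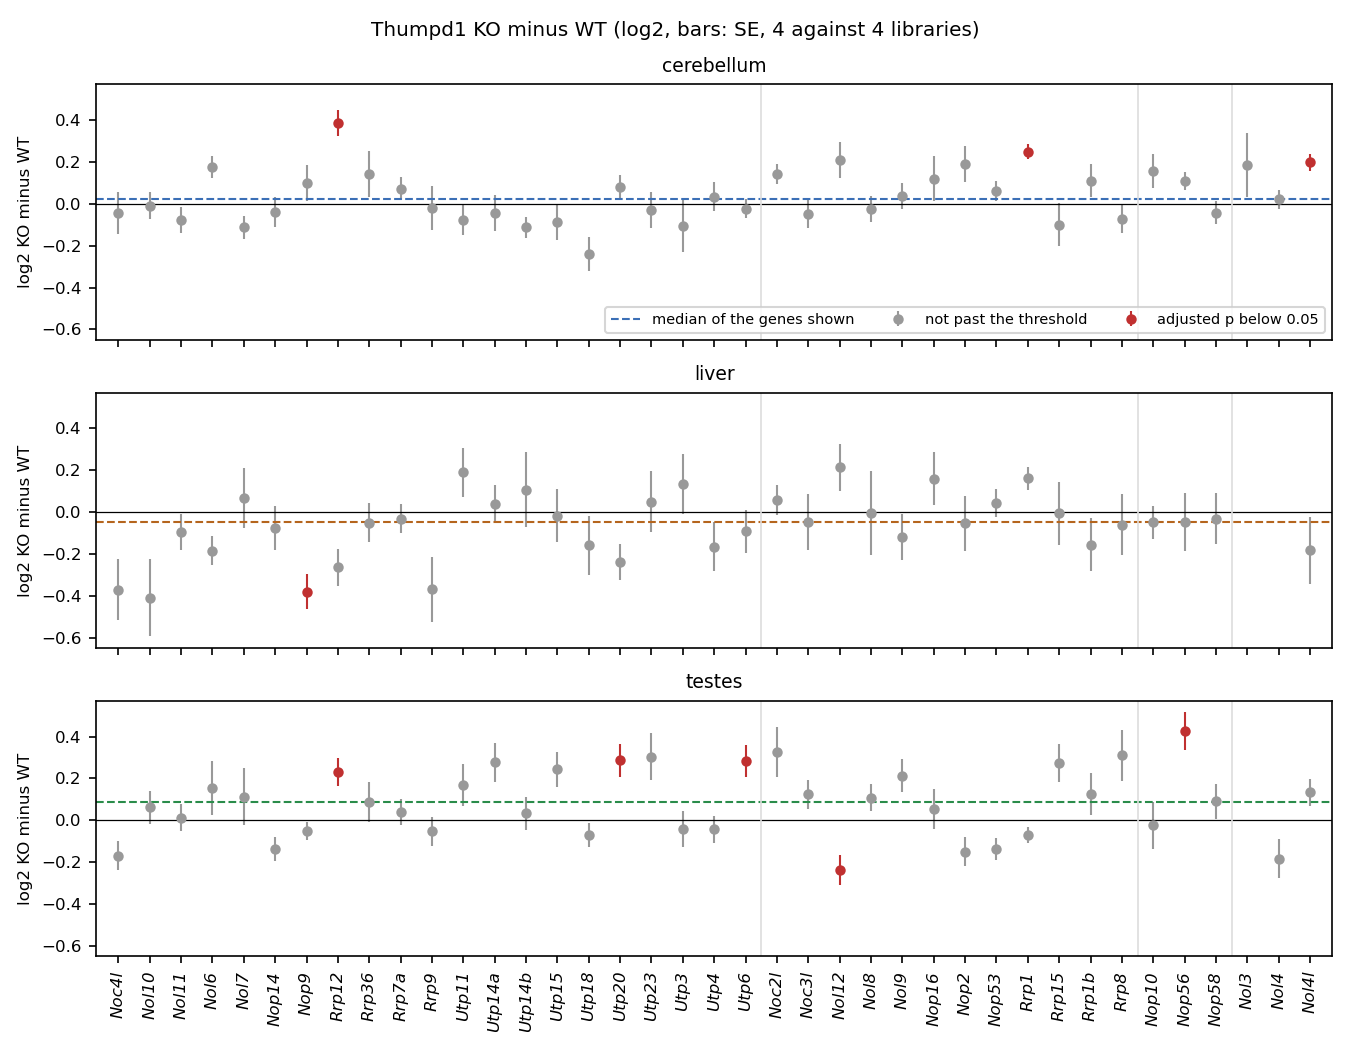
Log2 difference KO minus WT of the 39 genes in cerebellum, liver and testes, with SE, from 4 against 4 libraries and in the same gene order and role groups as the plot of WT levels. Red points passed an adjusted p of 0.05 (3 in cerebellum, 1 in liver, 5 in testes), and the dashed line is the median of the genes tested.

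The median log2 change of the tested members was 0.09 in testes, 0.02 in cerebellum and -0.05 in liver, where all genes tested had medians within 0.01 of 0. Leaving out 1 library moved the cerebellum median to between 0.0057 (without WT replicate 4) and 0.048 (without KO replicate 7) and the liver median to between -0.093 (without WT replicate 4) and -0.029 (without WT replicate 2). In testes 25 genes had a positive and 13 a negative change, in cerebellum 20 and 19, and in liver 11 and 26, although 16 of 37 were positive in liver with TMM factors and also without WT replicate 1 or 2. Summed over the 39 genes, expression was 1019 to 1029 CPM in WT and 1081 to 1088 in KO cerebellum. In testes it was 2286 to 2317 CPM against 2352 to 2429, and in liver 453 to 558 against 461 to 505. The groups did not overlap in cerebellum and testes and overlapped in liver. These sums are led by few genes, in cerebellum by Rrp1 and in testes by Nol4l and Rrp1. In testes these 2 genes moved in opposite directions. Mean CPM was 516.5 in WT and 548.1 in KO for Nol4l, and 328.8 and 301.4 for Rrp1.

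**Figure D3:**
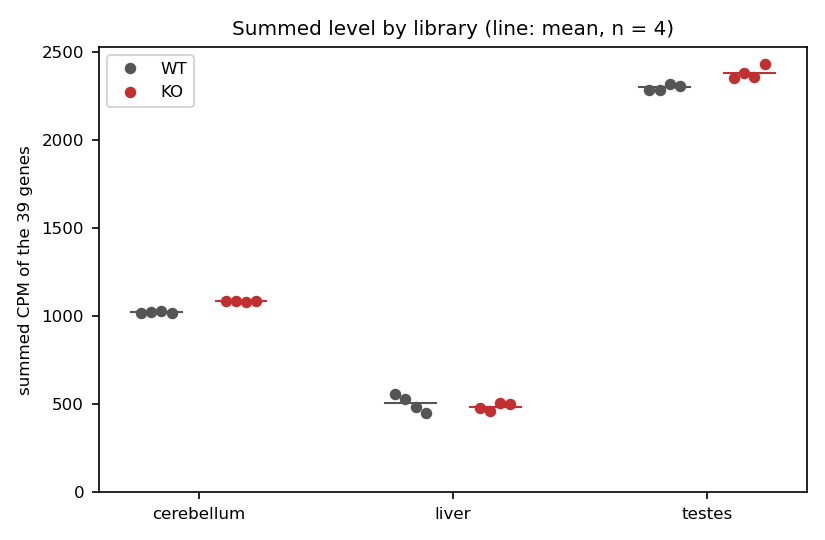
Summed CPM of the 39 genes in each library of cerebellum, liver and testes (grey WT, red KO), with the mean of 4 libraries as a line. KO libraries lie above all WT libraries in cerebellum (1081 to 1088 against 1019 to 1029) and testes (2352 to 2429 against 2286 to 2317).

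By role, the small subunit factors had a median log2 change of 0.06 in testes, -0.09 in liver and -0.03 in cerebellum. Of these 21 genes, 3 were called higher in testes, 1 lower in liver and 1 higher in cerebellum, where 9.74%, 3.12% and 3.93% of all genes were called in these directions. The 12 large subunit factors had medians of 0.12 in testes, -0.005 in liver and 0.09 in cerebellum, with 1 lower in testes and 1 higher in cerebellum, beside 10.7% and 3.93% of all genes. The 3 snoRNP genes had medians of 0.09 in testes, -0.05 in liver and 0.11 in cerebellum, with Nop56 higher in testes. The CPM ranges of the genotypes were separate for 7 of 39 genes in cerebellum (6 higher, 1 lower), 1 of 37 in liver (lower) and 14 of 38 in testes (12 higher, 2 lower), beside 13.8%, 12.7% and 28.6% of all genes tested.

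Rrp12, a HEAT-repeat protein that helps ribosomal precursors leave the nucleus, was the gene called in more than 1 tissue. Its CPM in cerebellum was 17.5, 19.1, 17.7 and 16.6 in WT and 23.8, 22.2, 24.9 and 23.4 in KO. All KO libraries were above all WT libraries, with a log2 change of 0.39 (SE 0.06, adjusted p = 0.00386). In testes it was 53.1, 58.5, 54.9 and 55.8 in WT and 61.8, 64.5, 69.5 and 73.4 in KO, again without overlap and with a log2 change of 0.23 (SE 0.07, adjusted p = 0.0325). In liver it was 11.3, 10.2, 9.96 and 8.34 in WT and 8.47, 8.32, 8.50 and 8.03 in KO, groups that overlapped, with a log2 change of -0.26 that did not pass (adjusted p = 0.107), but did with sample quality weights, which count the more variable libraries less (-0.31, adjusted p = 0.0296). The gene lies on chr19:41862851-41896173 (mm10, minus strand) and no other gene overlaps its exons. With consecutive libraries as correlated couples, the cerebellum call stayed and the testes call was lost (adjusted p = 0.0900).

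Rrp1, a large subunit factor, had the lowest adjusted p of the 39 genes. In cerebellum its CPM was 128.8, 134.9, 128.2 and 130.6 in WT and 153.5, 149.8, 160.2 and 156.6 in KO, with a log2 change of 0.25 (SE 0.04, adjusted p = 0.00167). No KO library was below a WT library. In testes the order was the opposite, with 326.2, 328.1, 331 and 330.1 in WT and 298.8, 306.2, 300.3 and 300.3 in KO. These libraries did not overlap either, but the log2 change after quantile normalization was -0.07 (adjusted p = 0.213), against -0.19 with TMM factors, edgeR and DESeq2, each of which called it lower. In liver it was 41.0 to 47.2 in WT and 45.8 to 50.4 in KO, with a log2 change of 0.16 (adjusted p = 0.108).

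Nol4l was the third gene called in cerebellum. Its CPM was 48.6, 50.5, 51.2 and 52.7 in WT and 59.4, 57.8, 57.7 and 59.0 in KO, without overlap and with a log2 change of 0.20 (SE 0.04, adjusted p = 0.0152). In testes, where it is most abundant, it was 495 to 531 in WT and 505 to 639 in KO, with a change of 0.13 (adjusted p = 0.147) that was 0.017 with TMM factors in place of quantile normalization. Without WT replicate 1 or KO replicate 5 the cerebellum call was lost, with adjusted p up to 0.0629. The largest changes in cerebellum that did not pass were those of Utp18 (-0.24, adjusted p = 0.0934), Nol12 (0.21, adjusted p = 0.162) and Nop2, an rRNA cytosine methyltransferase (0.19, adjusted p = 0.187). Utp18 had 13.7 to 15.0 CPM in WT and 10.5 to 13.6 in KO, and these ranges did not overlap. Its changes in liver and testes were -0.16 and -0.07, and those of Nop2 were -0.05 and -0.15, none past the threshold, although Nop2 passed in testes with sample quality weights (-0.22, adjusted p = 0.0102).

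Several marker lists moved with genotype in cerebellum. The summed CPM of 22 midbrain and forebrain neuron genes was 129 to 145 in WT and 166 to 219 in KO, with 4 of 12 tested called higher and none lower. The sum of the 10 granule cell genes was 6722 to 6989 in WT and 6208 to 6632 in KO. Of these 10, 4 were called lower and none higher, while 5 had positive and 5 negative changes. All 10 oligodendrocyte genes had positive changes, 2 of them called higher. Of 10 choroid plexus genes 9 had negative changes and 1 a positive one, none of them called. Among 9 astrocyte genes 4 were higher, with sums of 4137 to 4196 and 4203 to 4392. The part of these cell types in the changes of Rrp12, Rrp1 and Nol4l was not tested.

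In liver, Nop9 was at 20.9, 19.4, 19.3 and 21.3 CPM in WT and 15.3, 15.8, 15.5 and 15.3 in KO. The groups did not overlap and the log2 change was -0.38 (SE 0.08, adjusted p = 0.0249). The call did not hold with couples (adjusted p = 0.143), without a filter on low counts or without WT replicate 1 or 3 or KO replicate 7 or 8. Nop9 was at 8.72 to 10.6 CPM in WT and 9.86 to 11.7 in KO cerebellum and at 187 to 196 and 178 to 187 in testes, and passed in neither (adjusted p = 0.525 and 0.415), although the testes libraries did not overlap. DESeq2 called it lower in testes, with a log2 change of -0.15 (adjusted p = 0.021). The exon overlap with Cideb given above applies to these values too. The 3 largest changes in liver that did not pass were all negative and in small subunit factors, Nol10 (-0.41, adjusted p = 0.212), Noc4l (-0.37, 0.157) and Rrp9, a component of the U3 snoRNP (-0.37, 0.182). In cerebellum and testes these genes had changes of -0.01 and 0.06 (Nol10), -0.04 and -0.17 (Noc4l) and -0.02 and -0.05 (Rrp9), none past the threshold. Noc4l passed in testes with sample quality weights (-0.25, adjusted p = 0.0053) and in liver without WT replicate 4 (-0.48, adjusted p = 0.0498). In WT liver, libraries 1 and 2 were above libraries 3 and 4 for several genes, as for Nop56 with 13.5 and 12.9 against 8.21 and 8.64 CPM and Rrp8 with 9.21 and 8.45 against 5.85 and 5.26. The share of reads in a list of 9 abundant noncoding RNA genes was 17.6% to 31.0% in WT and 17.6% to 27.3% in KO liver, and the sum of the 10 hepatocyte genes was 56210 to 73470 and 68540 to 96840 CPM, with 3 called higher and 1 lower. Leaving out these few noncoding genes under the same quantile normalization gave a log2 change of -0.38 for Nop9 again, and such a fit cannot show their part. The part of the noncoding RNA and of the hepatocyte genes in this change was not tested.

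In testes, Nop56, a core protein of the box C/D snoRNP that guides rRNA 2'-O-methylation, changed most. Its CPM was 15.0, 13.8, 13.3 and 14.4 in WT and 18.5, 19.2, 24.9 and 19.2 in KO, without overlap, and the log2 change was 0.43 (SE 0.09, adjusted p = 0.00954). KO replicate 7 was far above the others, and without it the call stayed. A processed pseudogene, Gm9432, matches 760 of the 1877 bases of the Nop56 transcript at 95.5% identity, so its count is uncertain where reads could be shared. In cerebellum the ranges were 45.4 to 48.0 in WT and 49.5 to 53.0 in KO, which also did not overlap, with a change of 0.11 that did not pass (adjusted p = 0.149), and in liver the change was -0.05. Nop58, its partner in the same particle, changed by 0.09 in testes (adjusted p = 0.453).

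Utp20, a large HEAT-repeat scaffold of the processome, was at 65.3, 66.6, 60.1 and 60.6 CPM in WT and 70.5, 72.1, 89.4 and 83.9 in KO testes. KO replicates 7 and 8 were higher than 5 and 6, and all were above WT, with a log2 change of 0.29 (SE 0.08, adjusted p = 0.0303). In liver it was -0.24 (adjusted p = 0.126) and in cerebellum 0.08. Utp6 was at 11.4, 11.1, 10.3 and 11.4 in WT and 13.5, 14.0, 16.6 and 14.3 in KO testes, with no overlap and a log2 change of 0.28 (SE 0.08, adjusted p = 0.0250), and its changes in cerebellum and liver were -0.02 and -0.09. Nol12, an RNA-binding factor of large subunit rRNA processing, was the gene that fell. It was at 18.5, 20.7, 19.7 and 19.6 in WT and 18.01, 18.3, 18.79 and 16.43 in KO, ranges that overlapped, with a log2 change of -0.24 (SE 0.07, adjusted p = 0.0388), and it had positive changes of 0.21 in both cerebellum and liver that did not pass.

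The testes calls were sensitive to the test. With TMM factors, edgeR, DESeq2 and sample quality weights, 10, 12, 15 and 16 of the 38 genes passed, split into 8 and 2, 10 and 2, 11 and 4, and 11 and 5 higher and lower. These are 26.3%, 31.6%, 39.5% and 42.1% of the members, beside 22.9%, 23%, 26.1% and 31.6% of all genes in the same fits, so that the members' share lay above the background there and below it in the fit given first. With couples, or with no filter, Nop56 alone remained. Leaving out 1 library gave between 1 and 7 called genes, with 1 remaining without KO replicate 7, WT replicate 3 or WT replicate 4 and 3 without WT replicate 1. Nol12 lost its call with TMM factors, edgeR and DESeq2, with couples and without a filter. The largest changes that did not pass were those of Noc2l (0.33, adjusted p = 0.0703), Rrp8, an rRNA adenine methyltransferase (0.31, 0.0892), and Utp23 (0.30, 0.0741). All 3 passed under some alternatives, Noc2l and Rrp8 with an adjusted p down to 0.0204 and 0.0406 and Utp23 down to 0.00577. In cerebellum and liver the changes were 0.14 and 0.06 for Noc2l, -0.07 and -0.06 for Rrp8, and -0.03 and 0.05 for Utp23, none past the threshold.

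**Figure D4:**
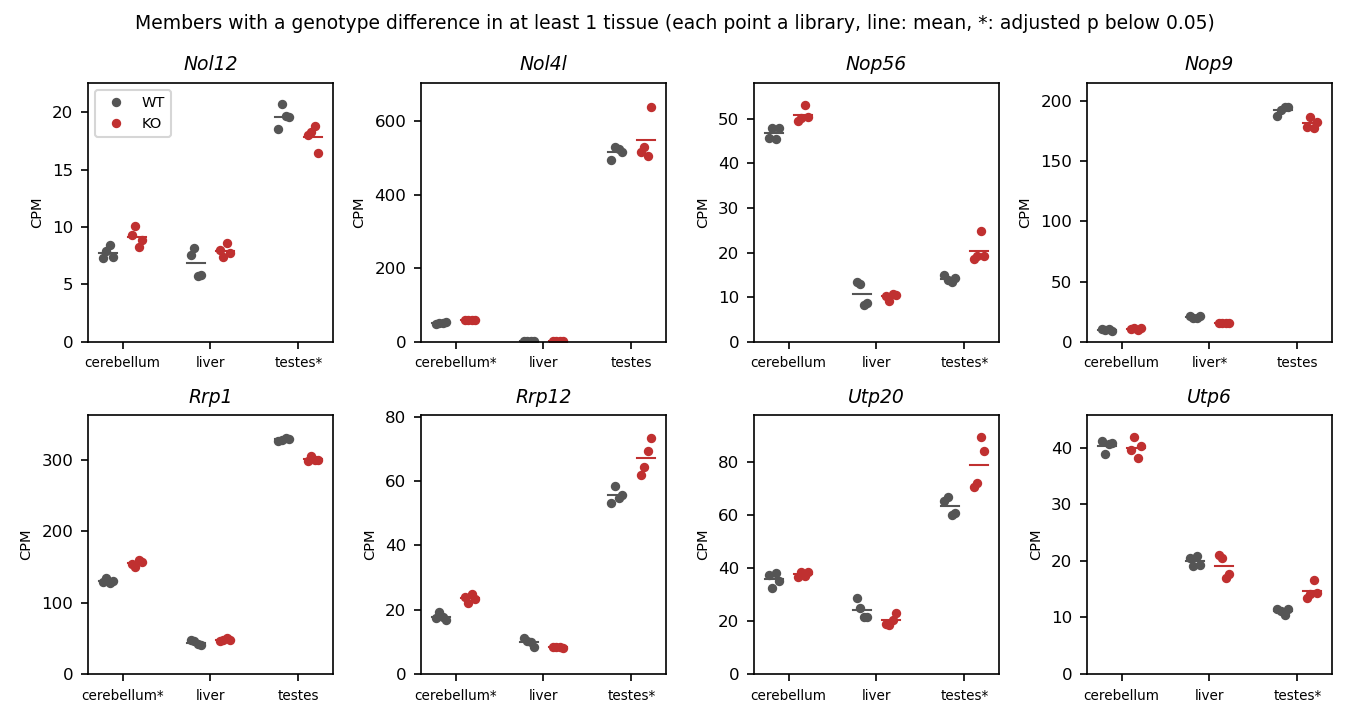
CPM of the 8 genes called in at least 1 tissue, each point a library (grey WT, red KO) and each line the mean of 4, with an asterisk at the tissues where the adjusted p was below 0.05. Rrp12 is higher in KO in cerebellum and testes but not in liver, and Rrp1 is higher in KO cerebellum (149.8 to 160.2 against 128.2 to 134.9) and lower in KO testes (299 to 306 against 326 to 331).

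Cell type markers differed with genotype in testes too. All 23 Sertoli cell genes had positive changes and 17 were called higher, with summed CPM of 2017 to 2319 in WT and 2589 to 3591 in KO. Of 19 elongating spermatid genes 10 were called lower and none higher, with sums of 19150 to 20070 and 14450 to 17730, and of 20 round spermatid genes 9 were lower, with sums of 3762 to 4080 and 3012 to 3907. None of these genes was at 0. The part of this shift in the changes of Nop56, Utp20, Utp6, Rrp12 and Nol12 was not tested.

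Promoters of 5 of the 8 called genes are shown because genes of ribosome assembly are often described as sharing promoter elements, of which the E-box bound by Myc (CACGTG) and the GC box bound by Sp1 (GGGCGG) are the best known. RefSeq promoter windows (GRCm38.p6, 250 bases before to 50 after the start) were found for 31 of the 39 genes. Those without an entry were Rrp12, Utp23, Nol3, Utp11, Utp6, Nol4, Nol6 and Nop53. The sequences run 5' to 3' along the gene's strand, and capitals mark an E-box or a GC box on either strand.
Rrp1, chr10:78412994-78413293, minus strand: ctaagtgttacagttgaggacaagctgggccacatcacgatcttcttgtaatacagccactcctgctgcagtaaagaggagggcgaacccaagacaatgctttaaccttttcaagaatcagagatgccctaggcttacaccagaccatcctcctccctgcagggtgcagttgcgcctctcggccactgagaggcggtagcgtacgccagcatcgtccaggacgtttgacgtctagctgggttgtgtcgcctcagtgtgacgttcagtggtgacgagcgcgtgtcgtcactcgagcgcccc
Nol12, chr15:78934683-78934982, plus strand: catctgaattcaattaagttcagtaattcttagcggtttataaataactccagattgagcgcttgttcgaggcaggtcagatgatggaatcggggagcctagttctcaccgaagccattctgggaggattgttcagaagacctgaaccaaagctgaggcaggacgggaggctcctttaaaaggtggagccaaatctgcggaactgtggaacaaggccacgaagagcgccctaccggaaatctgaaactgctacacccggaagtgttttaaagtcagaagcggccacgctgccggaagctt
Nop56, chr2:130274162-130274461, plus strand: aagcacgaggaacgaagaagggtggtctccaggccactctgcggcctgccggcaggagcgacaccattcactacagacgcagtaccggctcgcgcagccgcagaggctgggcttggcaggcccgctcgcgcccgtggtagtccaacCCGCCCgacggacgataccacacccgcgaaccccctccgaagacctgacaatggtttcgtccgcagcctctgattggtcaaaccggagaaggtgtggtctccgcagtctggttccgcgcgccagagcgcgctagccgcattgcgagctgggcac
Nop9, chr14:55745443-55745742, plus strand: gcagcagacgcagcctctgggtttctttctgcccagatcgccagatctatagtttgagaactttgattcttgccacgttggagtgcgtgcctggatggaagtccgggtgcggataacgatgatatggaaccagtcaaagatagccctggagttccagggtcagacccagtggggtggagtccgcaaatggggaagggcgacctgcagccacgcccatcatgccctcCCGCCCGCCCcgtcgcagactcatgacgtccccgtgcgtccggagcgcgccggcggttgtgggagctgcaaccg
Utp20, chr10:88826765-88827064, minus strand: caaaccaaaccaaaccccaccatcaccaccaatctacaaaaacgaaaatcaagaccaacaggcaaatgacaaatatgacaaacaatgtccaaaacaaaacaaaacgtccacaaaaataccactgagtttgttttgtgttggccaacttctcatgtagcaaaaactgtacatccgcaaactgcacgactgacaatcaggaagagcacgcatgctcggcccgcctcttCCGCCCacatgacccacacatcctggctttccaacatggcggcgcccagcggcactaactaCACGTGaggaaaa
Rrp1 and Nol12 had neither element, Nop56 had 1 GC box, Nop9 had 2 overlapping GC boxes, and Utp20 had 1 GC box before and 1 E-box after its start. Nol4l, whose sequence is not printed, had 2 windows with 3 and 5 GC boxes, no E-box and a GC content of 80.3% and 81%. Over all 31 genes, 25 (80.65%) had a GC box against 38.2% of 27025 genes in the RefSeq table, 7 (22.6%) an E-box against 8.09%, 11 (35.5%) an ETS element (CCGGAAG) against 9.93%, 3 (9.68%) a TATA box (TATAAA) against 15.7% and 2 (6.45%) an ATF4-type element (TGATGNAA) against 4.51%. Both strands were searched, and a gene with several starts counted once if any window held the letters. Counted by window, the shares of all 32851 promoters were 35.66%, 7.15%, 8.86%, 13.6% and 3.97%. Nol12 had the ETS, TATA and ATF4-type letters. The median GC content was 61.3% in the windows of these genes and 52.7% in all promoters. A match is a run of letters and says nothing about binding.

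Whether the effect of the deletion differed between tissues was tested directly with TMM scaling over all 24 libraries, on the 37 genes measured in all 3 tissues. Between cerebellum and liver, 2 genes differed, beside 7.67% of 11112 genes. The log2 effect in cerebellum minus that in liver was 0.65 for Rrp12 (SE 0.11, adjusted p = 0.000889), which rose in cerebellum, and 0.49 for Nop9 (SE 0.13, adjusted p = 0.0203), which fell in liver and did not pass in cerebellum. Between testes and liver, 7 differed, beside 15.9%. The effect in testes was more positive for Nop56 (by 0.44), Utp20 (0.42), Rrp12 (0.39) and Utp6 (0.35) and more negative for Nol12 (-0.51), Rrp1 (-0.40) and Nop53 (-0.25). Between testes and cerebellum, 4 differed, beside 14.5%, all more negative in testes, namely Rrp1 (-0.49, SE 0.06, adjusted p = 1.27e-05), Nol12 (-0.49), Nop53 (-0.30) and Rrp12 (-0.26). Within tissues, Nop53 had log2 changes of 0.06, 0.04 and -0.14 in cerebellum, liver and testes and passed in none. The 3 contrasts share libraries. With consecutive libraries as couples, 1 gene remained in each, Rrp12 between cerebellum and liver and Rrp1 in both contrasts with testes.

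Other genes of the same pathway are given by their counts, beside 6.44%, 5.91% and 20.5% of all genes called in cerebellum, liver and testes. Of 37 further small subunit factors, none passed in cerebellum, 1 rose and 1 fell in liver, and 2 rose and 1 fell in testes, with median log2 changes of -0.02, -0.02 and 0.04. The genes with the lowest p were Mphosph10 (-0.36, adjusted p = 0.0675) and Ddx49 (0.26, 0.0731) in cerebellum, Wdr46 (-0.41, 0.00610) and Rcl1 (0.30, 0.0114) in liver, and Tsr2 (0.38, 0.0129) and Wdr3 (0.31, 0.0157) in testes. Of 46 further large subunit factors, none passed in cerebellum, 1 fell in liver and 2 rose and 2 fell in testes, with medians of 0.05, -0.01 and 0.07. Bop1 fell in liver (-0.41, adjusted p = 0.0233), and in testes Mdn1, the AAA ATPase that strips assembly factors, rose (0.36, 0.00618) while Ddx51 fell (-0.26, 0.0125). Wdr18 in cerebellum (0.13) and liver (-0.18) and Gnl3l in cerebellum (-0.11) did not pass. Of 15 tested snoRNP and scaffold genes, 1 passed, nucleolin (Ncl) in testes (0.41, adjusted p = 0.00449), and the medians were -0.03, -0.06 and 0.04. Nucleophosmin (Npm1, -0.17, adjusted p = 0.0514) and Nat10, the acetyltransferase that works with Thumpd1 (0.14, 0.113), were next in cerebellum, Npm3 (0.23) and Ruvbl1 (0.16) in liver, and Gar1 (0.28, 0.0665) in testes. Of the RNA polymerase I genes, Polr1a, its largest subunit, rose in cerebellum (0.24, adjusted p = 0.0169) with Polr1b at 0.13, none passed in liver, where Taf1a (0.46, 0.183) and Myc (-0.72, 0.198) had the lowest p, and in testes 2 rose and 1 fell of 17 tested, the lowest p being those of Taf1d (0.35, 0.00709) and Ubtf (0.44, 0.00714). The list medians were 0.03, -0.01 and 0.09.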

How the data were processed

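Total RNA of cerebellum, liver and testes of Thumpd1 KO and WT mice was prepared with a stranded, rRNA-depleted kit and sequenced paired-end. Per the submitters' processing notes and the study's methods, the authors aligned reads to mm10 with STAR and GENCODE M21 and deposited RSEM expected counts per gene, 1 table with 24 columns, without normalization. Whether RSEM used strand and how multiply mapped reads were shared is not given in the sources used here. All 55450 gene IDs matched GENCODE M21, from which coordinates, overlaps and the length of 1 main transcript per gene were taken. Depth was 16353797 to 37889615 counts per library, and a count of 3 was used as the floor.

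Members were found by symbol. The members, their roles and the other gene lists were chosen with earlier results of these data known, and no list is independent support. Within each tissue, genes with at least 1 CPM in 4 of 8 libraries were fitted by limma-voom (limma 3.58.1, R 4.3.3) with quantile normalization, following the study's methods. Contrasts among WT tissues and of the KO effect among tissues used limma-voom with TMM factors over 12 and 24 libraries, the latter fit on genes tested in all 3 tissues. P-values were adjusted by Benjamini-Hochberg over all genes in the fit, and 0.05 was the threshold. Every adjusted p in the text comes from these limma fits unless another tool is named. Alternatives were edgeR 4.0.16 (quasi-likelihood) and DESeq2 1.42.0, both on rounded counts, other scaling factors, filters on low counts (among them at least 10 counts in 4 libraries), sample quality weights, removal of abundant noncoding RNA and leaving out each library. Correlated couples (duplicateCorrelation) and scaling to total counts were added after the data had been seen. The code was tested on simulated data with known changes.

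Named genes were, for KO against WT, every member past the threshold and the 3 largest that did not pass in a tissue, for WT tissues the 5 largest rises and falls per contrast, for differences of effect every member past the threshold, and from each other list the 2 genes with the lowest p per tissue. Members named in tissue comparisons outside these ranks were chosen after their values were seen. Near copies were sought with blastn 2.17.0, and no member shared 50% of its transcript with another gene at 95% identity. The replicate numbers are 1 to 4 in WT and 5 to 8 in KO, so no number pairs the genotypes. Tissues share numbers, but the correlation of deviations between same-numbered libraries of 2 tissues was -0.185 to 0.233 and above 0.1 in 6 of 24 pairs, so tissues were not paired. Whether libraries are separate animals is not stated in the labels, and p-values measure the spread between libraries. Counting limits cover counting error only.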

Additional observations from a re-analysis of the deposited data

Results flagged for a closer look

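Of 232 sets of 4 libraries (1 gene in 1 group), 16 had 1 library whose gap to the next was above Dixon's 95% critical value as a share of the whole range. Chance flags about 1 in 20 such sets. In cerebellum, these were Nol6 in WT replicate 4 (67.06 CPM against 74.73 to 75.74), Nol9 in KO replicate 6 (21.16 CPM against 18.8 to 19.06), Nop58 in WT replicate 4 (46.56 CPM against 43.23 to 43.35), Rrp36 in KO replicate 8 (8.843 CPM against 7.705 to 7.868), Utp4 in WT replicate 4 (12.85 CPM against 14.19 to 14.38). In liver, these were Noc3l in KO replicate 6 (5.291 CPM against 4.856 to 4.86), Noc4l in WT replicate 4 (6.78 CPM against 10.3 to 10.88), Nol10 in KO replicate 6 (2.149 CPM against 3.378 to 3.47), Nop10 in WT replicate 4 (14.19 CPM against 18.23 to 19.04), Utp3 in WT replicate 1 (8.558 CPM against 7.932 to 8.002). In testes, these were Nol11 in WT replicate 1 (17.98 CPM against 16.91 to 17.01), Nop56 in KO replicate 7 (24.94 CPM against 18.49 to 19.2), Rrp1b in WT replicate 2 (12.69 CPM against 12.03 to 12.14), Rrp8 in WT replicate 3 (4.68 CPM against 6.083 to 6.19), Rrp9 in WT replicate 3 (13.67 CPM against 13.22 to 13.29), Utp23 in WT replicate 4 (5.562 CPM against 4.997 to 5.048). Of these libraries, cerebellum WT replicate 4 stood apart for Nol6, Nop58 and Utp4. Nop56 is the gene among them that passed the genotype test in the same tissue, and its call stayed without testes KO replicate 7.

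With 37 genes tested in each of 3 contrasts, the effect of the deletion differed between tissues for 8 genes, in 13 calls. These were 2 between cerebellum and liver, 7 between testes and liver and 4 between testes and cerebellum. Of all 11112 genes, 7.67%, 15.9% and 14.5% were called in these contrasts. Between cerebellum and liver, the log2 effect in cerebellum was higher by 0.65 for Rrp12 and 0.49 for Nop9. Between testes and liver, the difference was 0.42 for Utp20, 0.44 for Nop56, 0.39 for Rrp12, 0.35 for Utp6, -0.51 for Nol12, -0.25 for Nop53 and -0.40 for Rrp1. Between testes and cerebellum, it was -0.49 for Nol12, -0.26 for Rrp12, -0.30 for Nop53 and -0.49 for Rrp1. The highest adjusted p was that of Rrp12 between testes and cerebellum (0.0489), whose call was lost when any of 17 libraries was left out. Between testes and liver, the calls of Nop53 and Nop56 were each lost without any of 8 libraries and that of Utp6 without any of 5, and the other 9 calls were kept whichever library was left out.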

How the results depend on the processing

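Depth and 4 libraries per group limit the calls of genes near 1 CPM, and liver libraries differed most among themselves. No paired analysis was possible because the genotypes share no replicate numbers. In the contrasts of the KO effect between tissues, which share numbers, the fit with the replicate block called 4, 7 and 5 members (cerebellum against liver, testes against liver, testes against cerebellum) where 2, 7 and 4 were called without it, and it lost the call of Rrp12 between testes and cerebellum (log2 -0.26, adjusted p = 0.0605 with and 0.0489 without the block). Deviations of same-numbered libraries correlated above 0.1 in 6 of 24 pairs, and the numbers were not taken as pairs. Libraries correlated best with their own number in 18 of 48 checks, each among 4 libraries, where chance picks 1 of 4. Whether same-numbered libraries share an animal is not settled by these checks. DESeq2 called 4, 8 and 6, quantile normalization of 24 libraries 2, 6 and 2, at least 1 CPM in 4 of 24 libraries 2, 5 and 2, and correlated couples 1 in each. The background moved too. Over all 11112 genes, 852, 1763 and 1616 were called in the main fit, 1441, 2325 and 1987 with DESeq2 and 154, 493 and 296 with couples. Leaving out 1 library gave 2 to 3, 4 to 9 and 3 to 7.

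For KO against WT in liver, 0 members were called without a filter, 2 with sample quality weights, 0 with couples and 0 to 2 without 1 library. In testes, the counts were 10 with TMM factors, 12 with edgeR, 15 with DESeq2, 1 without a filter, 16 with weights, 1 with couples and 1 to 7 without 1 library, and in cerebellum 2 to 4 without 1 library. The median change in testes was 0.077 with weights and 0.058 to 0.101 without 1 library. Without 1 library it was 0.0057 to 0.048 in cerebellum and -0.093 to -0.029 in liver, where the lowest value under any alternative was -0.099. Over all genes, calls in cerebellum went from 1045 to 628 without a filter, 1757 with weights and 598 with couples, in liver from 757 to 492, 1705 and 274 and to 1408 with DESeq2, and in testes from 3957 to 1773 with couples and 6107 with weights. Without 1 library they were 398 (WT replicate 1) to 2321 (KO replicate 6) in cerebellum, 292 (WT replicate 1) to 798 (WT replicate 4) in liver and 1741 (WT replicate 3) to 4931 (KO replicate 5) in testes, so the background shares in the report move with single libraries. The WT tissue contrasts called 33 to 37 members under every alternative tried. Rrp12 and Rrp1 in cerebellum and Nop56 in testes kept their calls in all 16 alternatives each.

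With total counts in place of TMM factors, 16, 5 and 5 of 39 members changed sign between WT tissues (cerebellum against liver, testes against liver, testes against cerebellum), 10, 5 and 0 of them called under both scalings. Of the 48 KO changes followed singly (16 members in 3 tissues), those that changed sign did not pass. They were Nol10 (0.00276 with TMM, 0.00959 with weights, -0.046 to 0.023 without 1 library) and Rrp9 (0.00843 with edgeR, 0.00767 with DESeq2, -0.093 to 0.056) in cerebellum, Nol10 (-0.018 with weights) and Rrp9 (0.0029 with TMM, 0.0016 with edgeR) in testes, and, without 1 library, Noc4l (-0.108 to 0.048) and Utp23 (-0.071 to 0.010) in cerebellum and Nop2 (-0.165 to 0.0070), Nop56 (-0.162 to 0.044) and Rrp8 (-0.147 to 0.046) in liver. The cause of these differences was not tested.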
